A study of Homo sapiens with 4 samples.

Results

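The CCN family of matricellular proteins was followed through its 6 genes, CCN1 to CCN6, known earlier as CYR61, CTGF, NOV, WISP1, WISP2 and WISP3. Its members on the array were all probe sets whose only gene symbol in the platform annotation is one of these names, which gave 12 of 54613 tested probe sets, or 6 of 19775 named genes. CCN1, CCN3 and CCN6 were each read by 2 probe sets, CCN4 by 4, and CCN2 and CCN5 by 1 each. No probe set with several symbols included a CCN name.

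CCN proteins are secreted, cysteine-rich and modular. They sit in the extracellular matrix, where they bind integrins, heparan sulfate proteoglycans and growth factors and alter how cells respond to them, without serving as structural fibres. CCN1 and CCN2 are standard target genes of the transcriptional co-activators YAP and TAZ, which reach DNA through TEAD factors, and CCN4 was first described as a gene induced by WNT1.

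The cells were LN-229, a glioblastoma line of long standing, grown as 4 cultures with 1 array each. The 2 control cultures were left untreated, and the 2 induced cultures received doxycycline for 48 h so that they would express WIF1, a secreted antagonist that captures WNT proteins. The labels do not say how the inducible gene was introduced or whether the line is 1 clone. The replicates are labelled biological. No array tested doxycycline in cells without the WIF1 gene to be induced, so the drug and the protein cannot be told apart. The values are log2 intensities, and every difference below is induced minus control with n = 2 arrays per group.

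The deposited values were on a common scale, with array medians from 6.15 to 6.19. Replicates correlated at 0.998 in the controls and 0.997 in the induced arrays over all probe sets. Limma called 0 of 54613 probe sets at an adjusted p under 0.05 (0%), and 0 of 19775 genes (0%). WIF1 itself did not set the groups apart: its probe set gave 2.98 and 2.90 without doxycycline and 2.93 and 3.03 with it, at the 5.75 percentile of all probe sets (difference 0.04, SE 0.10, adjusted p = 0.911). Whether this probe set reads the introduced gene is not given in the sources used here, so the arrays are called induced by their labels only. Of 9 glioma lineage markers, 7 reached the array-wide median, VIM and NES among them, while GFAP and AQP4 lay below it. Among markers of other cell types, 1 of 4 leukocyte, 3 of 6 endothelial and 3 of 6 epithelial markers reached that median. By percentile among all probe sets, the keratin KRT18 was at the 97.8, KRT8 at the 73.1, the endothelial PECAM1 at the 63.0 and the T cell gene CD3E at the 60.0, while PTPRC, CDH5 and EPCAM lay at the 13.4, 15.2 and 8.20 percentiles.

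Of the 6 genes, stretches of CCN2 and CCN6 were taken from the RefSeq promoter table of GRCh38.p14. The search for CCN entries skipped a chromosome and incomplete entries, so it does not show whether the other genes have an entry. The CCN2 stretch is shown because CCN2 was among the members that stood higher in both induced arrays and because it carries the element through which TEAD factors bind. It is the 250 bases before the start of the gene, chr6:131951373-131951622 on the minus strand, written 5′ to 3′, with each match to the TEAD element GGAATG in capitals.
CCN2: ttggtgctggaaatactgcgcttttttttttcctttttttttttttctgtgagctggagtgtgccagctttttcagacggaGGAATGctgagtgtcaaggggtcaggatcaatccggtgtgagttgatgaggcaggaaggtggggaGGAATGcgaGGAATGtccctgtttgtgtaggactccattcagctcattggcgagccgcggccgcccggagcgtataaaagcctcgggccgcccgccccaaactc

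The element was searched on both strands and occurred 3 times in the CCN2 stretch, at 169 to 164, 104 to 99 and 95 to 90 bases before the start, all on the strand of the gene. Of 35114 promoter stretches of the same length 11.9% held at least 1 match and 0.0826% held 3 or more. The CCN6 stretch held 1 match, at 128 to 123 bases before the start. Neither stretch held the AP-1 element TGANTCA (in 6.57% of all stretches), the TCF/LEF element CTTTGA (11.2%) or a CArG box, the element of serum response factor (1.16%). The listed elements do not overlap within the CCN2 stretch. A match is a run of letters and not a measured binding site.

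CCN1 and CCN2 gave strong signals, at the 97.1 to 98.4 percentiles of all probe sets, and both stood higher in the arrays labelled induced. CCN1, a heparin-binding integrin ligand and an early growth factor response gene, was 1.23-fold higher by its brighter probe set and 1.19-fold by the other. CCN2, the connective tissue growth factor, was 1.09-fold higher. None of these passed the adjusted threshold. In bulk cultures, more transcript per cell and a larger share of cells with the transcript cannot be told apart.

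The brighter CCN1 probe set, 201289_at, read 11.69 and 11.81 in control cultures against 12.02 and 12.06 in induced ones. Both induced arrays lay above both controls, and the space between the groups, 0.22, was larger than the distance of 0.12 between the controls. The difference was 0.30 (SE 0.046, 95% interval 0.19 to 0.41; limma adjusted p = 0.391). The second CCN1 probe set, 210764_s_at, read 11.18 and 11.21 in control cultures against 11.43 and 11.46 in induced ones. Here too the groups did not overlap, and the replicates were 0.025 and 0.031 apart. Its difference was 0.25 (SE 0.035, 95% interval 0.16 to 0.33; limma adjusted p = 0.346). By absolute size, the differences of these probe sets lay at the 95.7 and 91.9 percentiles of all probe sets.

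CCN2 was read by 209101_at at 11.91 and 11.94 in control cultures against 12.05 and 12.04 in induced ones. The groups did not overlap, and the replicates of each lay within 0.030 of each other. The difference was 0.13 (SE 0.031, 95% interval 0.051 to 0.20; limma adjusted p = 0.472), at the 67.4 percentile by absolute size. Its unadjusted p was under 0.05 as fitted but not without the intensity trend, a term that lets the prior spread vary with signal, where the SE was 0.062. Both CCN1 probe sets kept an unadjusted p under 0.05 without the trend. The difference of CCN1 exceeded that of CCN2 by 0.17, which was not tested.

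The balance of 3′ and 5′ signal also moved with the groups. The 3′ minus 5′ log2 difference of the ACTB control probe sets was -0.036 and 0.021 in control cultures against 0.033 and 0.11 in induced ones, and that of GAPDH was -0.067 and -0.069 against -0.043 and -0.047. Their part in the CCN1 and CCN2 values was not tested. Without the second induced array, which had the largest ACTB value, the differences were 0.28 for CCN1 and 0.13 for CCN2. The first induced array also lay above both controls for ACTB and GAPDH, so this does not set the balance apart from induction.

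**Figure D1:**
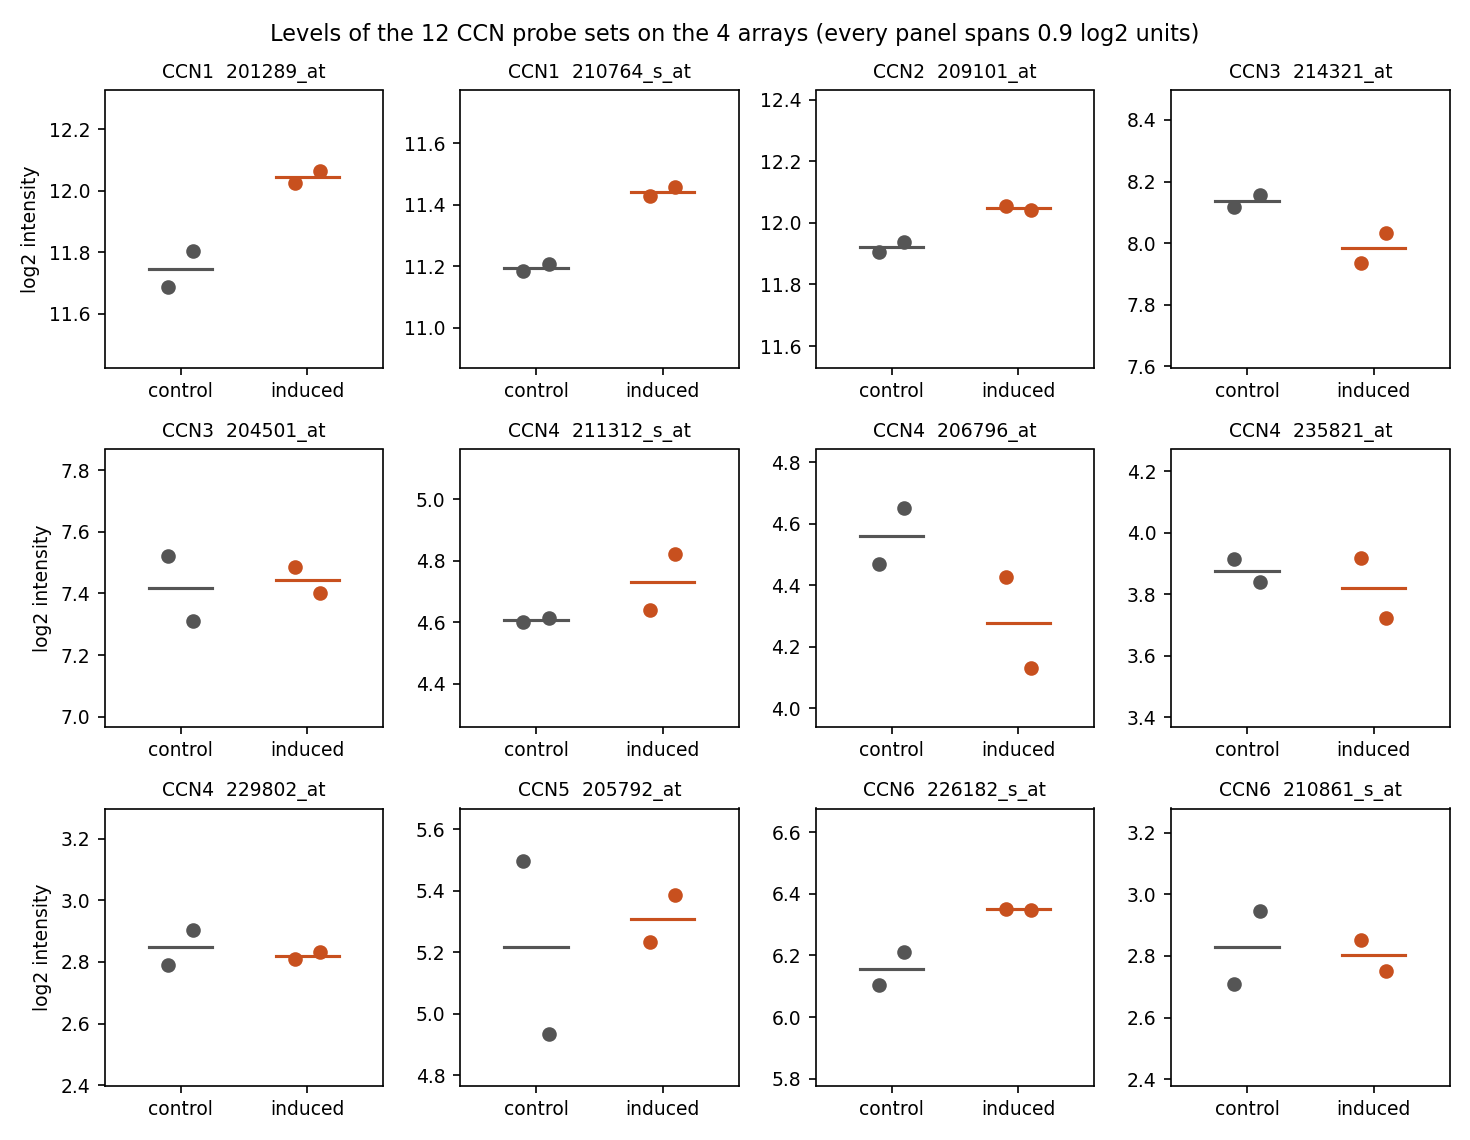
Log2 intensity of each CCN probe set on the 4 arrays, with 1 panel per probe set, points for single arrays (grey control, orange induced) and lines for group means, every panel spanning 0.9 log2 units. Both CCN1 panels, CCN2, CCN4 211312_s_at and CCN6 226182_s_at show the induced points above the controls, CCN3 214321_at and CCN4 206796_at show them below, and the 2 control points of CCN5 are 0.56 apart.

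Both probe sets of CCN3 and 1 of CCN6 had signals at or above the array-wide median, and the other CCN6 probe set was near the floor. CCN3, also called NOV, is known for restraining growth in several cell types. Its brighter probe set, 214321_at, read 8.12 and 8.16 in control cultures against 7.93 and 8.03 in induced ones, and its other, 204501_at, read 7.52 and 7.31 in control cultures against 7.49 and 7.40 in induced ones. The former had both induced arrays below both controls, while in the latter the groups overlapped. The differences were -0.15 (SE 0.063, 95% interval -0.31 to 0.0002; limma adjusted p = 0.499) and 0.03 (SE 0.090, adjusted p = 0.944). Averaged over both probe sets, CCN3 differed by -0.06 (SE 0.054, limma adjusted p = 0.710).

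CCN6, the family member whose loss causes an inherited cartilage disorder, was read by 226182_s_at at 6.10 and 6.21 in control cultures against 6.35 and 6.35 in induced ones. Both induced arrays lay above the controls. The difference was 0.19 (SE 0.085, 95% interval -0.01 to 0.40; limma adjusted p = 0.514), 1.14-fold. After centring each array on its median, or after cyclic loess, it was 0.22 and 0.21, each with an unadjusted p under 0.05 (adjusted p = 0.494 and 0.466). The other CCN6 probe set, 210861_s_at, had a dim signal, at the 4.50 percentile, and differed by -0.03 (SE 0.12), and the mean of both probe sets gave 0.08 (SE 0.094).

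CCN4, first described as a gene induced by WNT1, was dim in all of its 4 probe sets. Their means ran from 2.83 to 4.67, at the 4.69 to 23.7 percentiles. The brightest, 211312_s_at, read 4.60 and 4.61 in control cultures against 4.64 and 4.82 in induced ones. The next, 206796_at, went the other way, with 4.47 and 4.65 in control cultures against 4.43 and 4.13 in induced ones. In both the groups did not overlap, by margins of 0.029 and 0.045, which were smaller than the distance between the induced arrays. The differences were 0.13 (SE 0.11, adjusted p = 0.708) and -0.28 (SE 0.14, 95% interval -0.62 to 0.05; limma adjusted p = 0.535). Those of 235821_at and 229802_at were -0.06 (SE 0.11) and -0.03 (SE 0.099), with overlapping groups, and the mean of the 4 probe sets gave -0.06 (SE 0.088). The direction of CCN4 therefore depended on the probe set.

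CCN5 lacks the cystine knot at the C-terminal end that the other members carry. Its probe set, 205792_at, read 5.50 and 4.94 in control cultures against 5.23 and 5.38 in induced ones. The induced values lay between the controls, which lay 0.56 apart, more than the replicates of any other CCN probe set. The difference was 0.09 (SE 0.19, 95% interval -0.36 to 0.55; adjusted p = 0.893), and it was 0.37 without the first control array and -0.19 without the second.

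**Figure D2:**
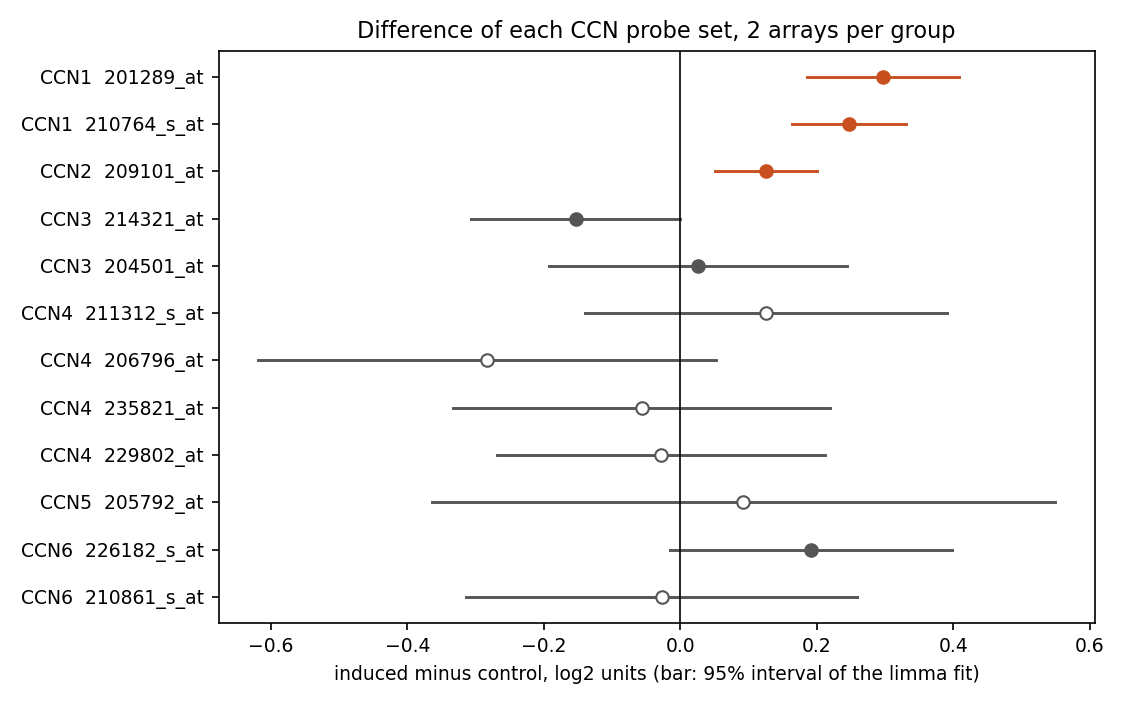
Induced minus control difference of each CCN probe set in log2 units with its 95% interval from the limma fit, orange where the unadjusted p was under 0.05 and with open circles where the mean signal was under the array-wide median. The intervals of both CCN1 probe sets and of CCN2 lie above 0, and all others reach or cross it, with the widest for CCN4 206796_at and CCN5.

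Over the family, 3 of 12 probe sets (25%) had an unadjusted p under 0.05, all higher, and 0 passed the adjusted threshold. Over all probe sets 10.0% reached that unadjusted p, 4.75% higher and 5.27% lower. That split turned with the scaling, from 2593 higher and 2876 lower to 3477 higher and 1869 lower after centring arrays on their medians, where 4 CCN probe sets were higher and 0 lower. Groups did not overlap in 7 of the 12 probe sets, 5 higher and 2 lower, against 41.4% of all probe sets. By sign, 7 of the 12 probe sets (58.3%) were higher and 5 lower. With 1 probe set per gene, the brightest, 5 of 6 CCN genes were higher by sign, where 48.7% of all genes were, and the median difference was 0.13 against -0.003 over all genes. CCN4 and CCN5 count among the 5 with dim signals, and with the mean of all probe sets CCN4 stood at -0.06, which left 4 of 6 higher. The median of 0.13 lay between CCN2 and that dim CCN4 probe set, so it too depends on the choice of probe set. The 3 called by unadjusted p read only CCN1 and CCN2, so they speak for 2 genes of the family. An exact permutation test of 2 against 2 arrays cannot give a 2-sided p below 0.333.

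The direction of CCN1, CCN2, CCN3 and CCN6 held in each of the 11 other settings run for these genes. CCN1 ran from 0.24, without the first control array, to 0.36, without the second, and CCN2 from 0.10 to 0.15. CCN3 ran from -0.20 to -0.06 and CCN6 from 0.08 to 0.25, with the values nearest 0 coming from the mean over probe sets.

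**Figure D3:**
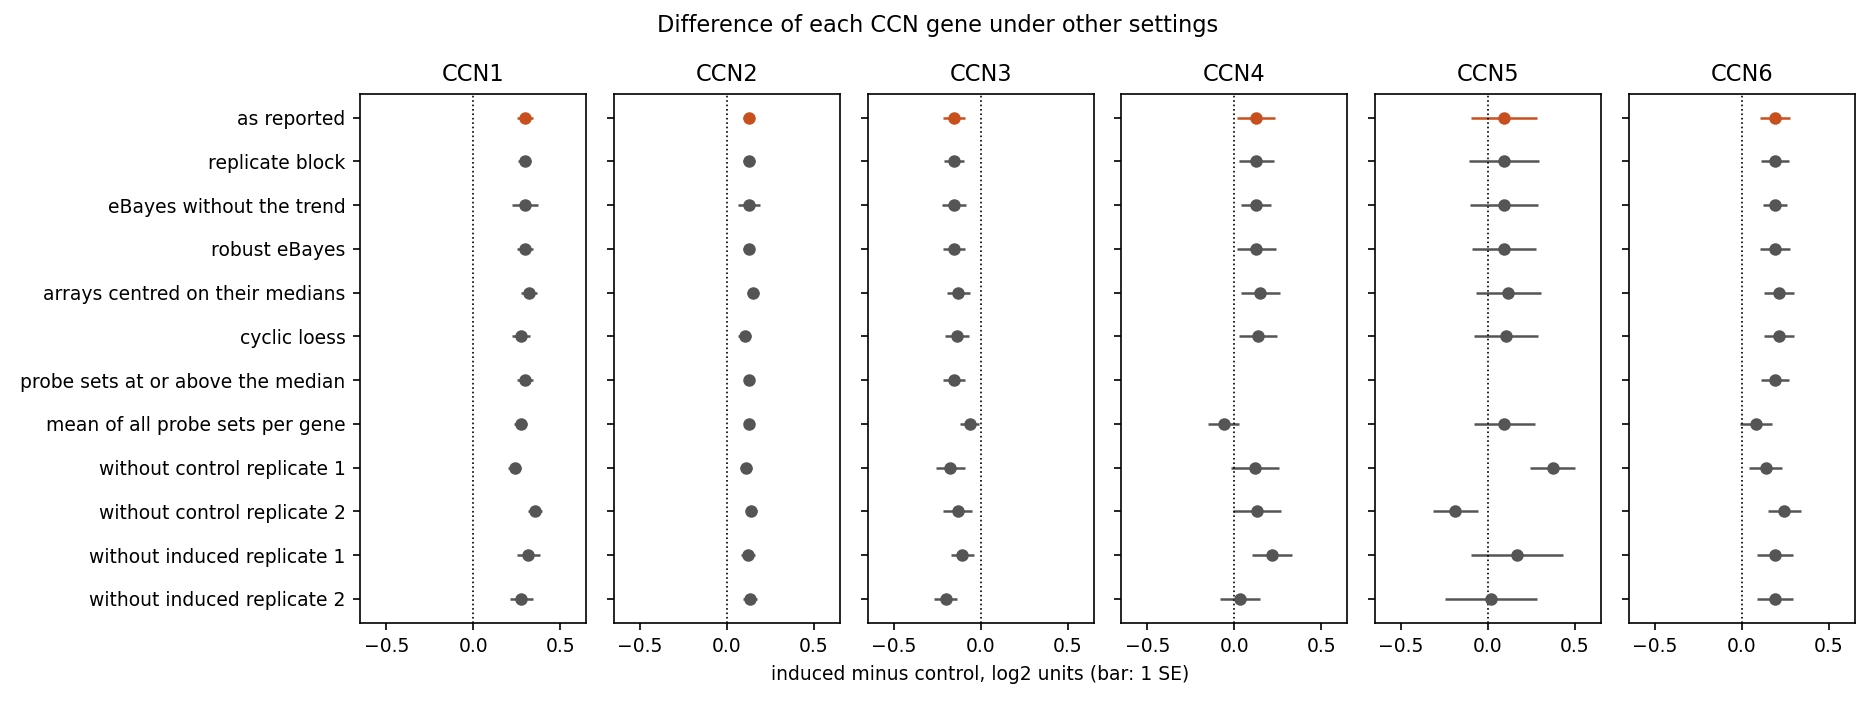
Induced minus control difference of each CCN gene in log2 units with 1 SE, as reported (orange) and under each other setting (grey), with no point where a filter removed the gene. CCN1 stays between 0.24 and 0.36, while CCN4 turns to -0.06 with the mean of all probe sets and CCN5 to -0.19 without control replicate 2.

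The genes whose pattern over the 4 arrays lay nearest to that of CCN1 were MATN1-AS1, SLC38A2-AS1, DNAJC5G, SDHAF3 and FAM230I. They are the 5 with the smallest Euclidean distance, from 0.024 to 0.042 log2 units, between values centred on each gene's own mean, out of 12720 genes whose brightest probe set reached the median. SDHAF3, an assembly factor of respiratory complex II, differed by 0.28 (SE 0.062). Nearest to CCN2 were TXLNA, GRIP1, BCL6B, F11 and MCTS1, at distances from 0.0084 to 0.013. With 4 arrays such a ranking rests on few values. None of the listed YAP/TAZ targets was among these genes. The distance also depends on the size of a difference, so targets with much larger or smaller differences could not rank here. Shared regulation was not tested.

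Among 23 measured YAP/TAZ target genes other than CCN1 and CCN2, 5 were higher and 0 lower when judged by an unadjusted p below 0.05 (21.7% of them, against 6.48% of all genes on the higher side and 4.73% on the lower). Of the 23, 22 had a signal at or above the array-wide median, while the shares of all genes, here and below, include dim genes. This list, like the other lists below, was written with earlier results of these data known. Some of its members were already known to stand high here. GADD45B, a stress-induced growth arrest gene, differed by 0.56 (SE 0.053), F3, tissue factor, by 0.55 (SE 0.048), the LIM protein AJUBA by 0.50 (SE 0.053) and GADD45A by 0.48 (SE 0.045). The growth factor gene TGFB2 was at 0.23 (SE 0.073), but its 5 probe sets ran from -0.16 to 0.23. Limma passed none of them, with adjusted p values from 0.160 for F3 to 0.472 for TGFB2, while F3, GADD45A and GADD45B passed after cyclic loess. The remaining 18 listed genes lay between -0.14 and 0.17. The list median was 0.06.

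The genes that carry this pathway were counted in the same way. Of 21 Hippo kinases, co-activators and TEAD factors 1 was higher and 0 lower when judged by an unadjusted p below 0.05 (4.76%, near the 6.48% of all genes). That gene was VGLL3, a TEAD cofactor, which read 9.95 and 9.66 in control cultures against 10.18 and 10.39 in induced ones (difference 0.48, SE 0.11, adjusted p = 0.472), while its other probe set gave 0.07. YAP1 was at -0.11 (SE 0.060), its paralogue TAZ (WWTR1) at 0.08 (SE 0.042) and TEAD1 at -0.01 (SE 0.036), none with an unadjusted p under 0.05. Their probe sets, 3 for each gene, ran from -0.11 to 0.05 for YAP1, from -0.25 to 0.08 for WWTR1 and from -0.37 to -0.01 for TEAD1. The Hippo kinase LATS1 was at 0.17 (SE 0.074), the upstream regulator NF2 at 0.08 (SE 0.039) and the TEAD competitor VGLL4 at -0.08 (SE 0.042). The 4 probe sets of LATS1 ran from -0.10 to 0.17, the 8 of NF2 from -0.04 to 0.21 and the 2 of VGLL4 from -0.23 to -0.08. The count of higher genes was 2 without the first control array or after cyclic loess, and 3 without the first induced array or after centring. Without the second induced array 1 gene was lower at that p.

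Serum response factor (SRF) and its myocardin-related co-activators also act on CCN1 and CCN2. Of 16 measured genes of this group 5 were higher and 0 lower when judged by an unadjusted p below 0.05 (31.3%, against 6.48% of all genes). They were the actin-binding CALD1 at 0.18 (SE 0.045), the tropomyosins TPM1 at 0.16 (SE 0.036) and TPM2 at 0.11 (SE 0.046), the LIM protein FHL2 at 0.09 (SE 0.035), and the dim ACTG2 at 0.45 (SE 0.13). SRF itself was at -0.11 (SE 0.060) and MRTFA at -0.03 (SE 0.062). Probe sets disagreed, from -0.30 to 0.30 over 11 for CALD1 and from -0.10 to 0.21 over 6 for TPM1. The 4 of TPM2 ran from -0.03 to 0.11, and the 2 of ACTG2 gave -0.03 and 0.45. Those of SRF ran from -0.11 to 0.03 and those of MRTFA from -0.26 to 0.005. The count was 2 without the second control array, 2 without the first induced and 2 without the second induced array, and 3 after cyclic loess.

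CCN2 is a classical target of TGF-beta. Of 18 measured genes of that pathway 1 was higher (TGFB2) and 2 were lower by an unadjusted p below 0.05 (5.56% and 11.1%, where all genes gave 6.48% and 4.73%). The lower ones were the co-receptor TGFBR3 at -0.28 (SE 0.061, its other probe set -0.35) and the matrix protein TGFBI, named for its induction by TGF-beta, at -0.11 (SE 0.031). COL1A1 was at -0.17 (SE 0.073), with probe sets from -0.17 to 0.47. The count of higher genes was 0 without the first control or without the second induced array, and that of lower genes 1 without the second control array or after centring.

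Among 20 measured receptors and binding partners of CCN proteins, 2 were higher and 2 lower by an unadjusted p below 0.05 (10% each way, where all genes gave 6.48% and 4.73%). ITGAV, the alpha subunit of the integrins that bind CCN1 and CCN2, read 11.32 and 11.21 in control cultures against 11.28 and 11.37 in induced ones, a difference of 0.06 (SE 0.053) with overlapping groups. Its partner ITGB5 was at -0.09 (SE 0.043), and ITGB3 read 7.99 and 7.87 in the controls against 7.51 and 7.67, a difference of -0.34 (SE 0.081, adjusted p = 0.472). The other probe sets of ITGB3 reached 0.08. The WNT co-receptor LRP6, which CCN2 can bind, was at -0.21 (SE 0.056), the proteoglycan SDC4 at 0.12 (SE 0.037) and the CCN2-binding growth factor VEGFA at 0.42 (SE 0.059), with 0.02 in the lowest of its probe sets. The 3 probe sets of LRP6 ran from -0.21 to 0.03, and the 4 of ITGB5 from -0.10 to 0.12. Without the first control array 0 of these genes were lower at that p, and 1 was higher when the second control or second induced array was left out.

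The direct WNT/beta-catenin targets, listed because CCN4 answers to WNT1, had 3 of 13 measured genes higher and 0 lower when judged by an unadjusted p below 0.05 (23.1%, against 6.48% of all genes), with a median of -0.01. These were the cyclin CCND1 at 0.21 (SE 0.060), whose other probe set gave -0.15, the antagonist DKK1 at 0.11 (SE 0.028), and the dim LGR5, whose probe sets gave 0.39 and -0.42. The feedback gene AXIN2 was at -0.06 (SE 0.078), SP5 at -0.13 (SE 0.086) and BMP4 at -0.12 (SE 0.066). The count was 1 when either second replicate was left out, and 1 gene was lower without the first induced array.

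Other matricellular proteins did not share one direction. Of 13 genes 6 were higher and 7 lower by sign, where 48.7% of all genes were higher, with 1 in each direction at an unadjusted p below 0.05 (7.69%, near the 6.48% and 4.73% of all genes). The count of lower genes was 0 after centring and without either control array or the first induced array. Thrombospondin 1 (THBS1) was at 0.39 (SE 0.082), with 7 probe sets from -0.27 to 0.39, and THBS2 at -0.14 (SE 0.054). The tenascin gene TNR was at 0.14 (SE 0.078), with 3 probe sets from 0.07 to 0.16. Osteopontin (SPP1) was at -0.08 (SE 0.039), but its other probe set gave 0.19.

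Glioma lineage markers also moved with the groups. Their mean over 9 genes was 10.03 and 10.08 in the controls and 9.96 in both induced arrays, with 8 of 9 lower by sign and 4 lower at an unadjusted p below 0.05, where 48.7% of all genes were higher by sign and 4.73% lower at that p. The count of 4 was 1 after centring, without the second control array or without the first induced array. In the deposited values the 4 were FABP7 at -0.19 (SE 0.034), SOX2 at -0.15 (SE 0.053), S100B at -0.12 (SE 0.038) and the dim AQP4. AQP4 was at -0.25 (SE 0.10), and its 5 probe sets ran from -0.25 to 0.06. VIM, at -0.06 (SE 0.029), was not among the 4. Fibroblast and smooth muscle markers, whose cells express CCN1 and CCN2 strongly, had means of 6.83 and 6.85 in control cultures against 6.79 and 6.89 in induced ones, with 6 of 8 at or above the array median. Of these 8, 3 were higher and 5 lower by sign, with a median of -0.04 and 1 higher at an unadjusted p below 0.05. That gene, LUM, was at 0.34 (SE 0.055), with -0.05 in its other probe set. DES was at 0.15 (SE 0.085), COL3A1 at -0.21 (SE 0.096), COL1A1 at -0.17 (SE 0.073), DCN at -0.10 (SE 0.087) and PDGFRA at -0.08 (SE 0.12). Here too probe sets disagreed, from -0.28 to 0.15 for DES, -0.21 to 0.01 for COL3A1 and -0.17 to 0.47 for COL1A1. Those of DCN ran from -0.25 to 0.28 and those of PDGFRA from -0.26 to 0.23. Means of endothelial markers ran from 5.54 to 5.62 in the controls and 5.58 to 5.62 after induction, those of leukocyte markers from 5.53 to 5.57 and 5.48 to 5.62, and those of epithelial markers from 6.35 to 6.44 and 6.34 to 6.37. Of 6 endothelial markers 2 were higher and 4 lower by sign, with a median of -0.01; the dim TEK, at 0.32 (SE 0.12), had an unadjusted p below 0.05, and CLDN5 was at -0.19 (SE 0.080). The part of these markers in the CCN values was not tested.

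**Figure D4:**
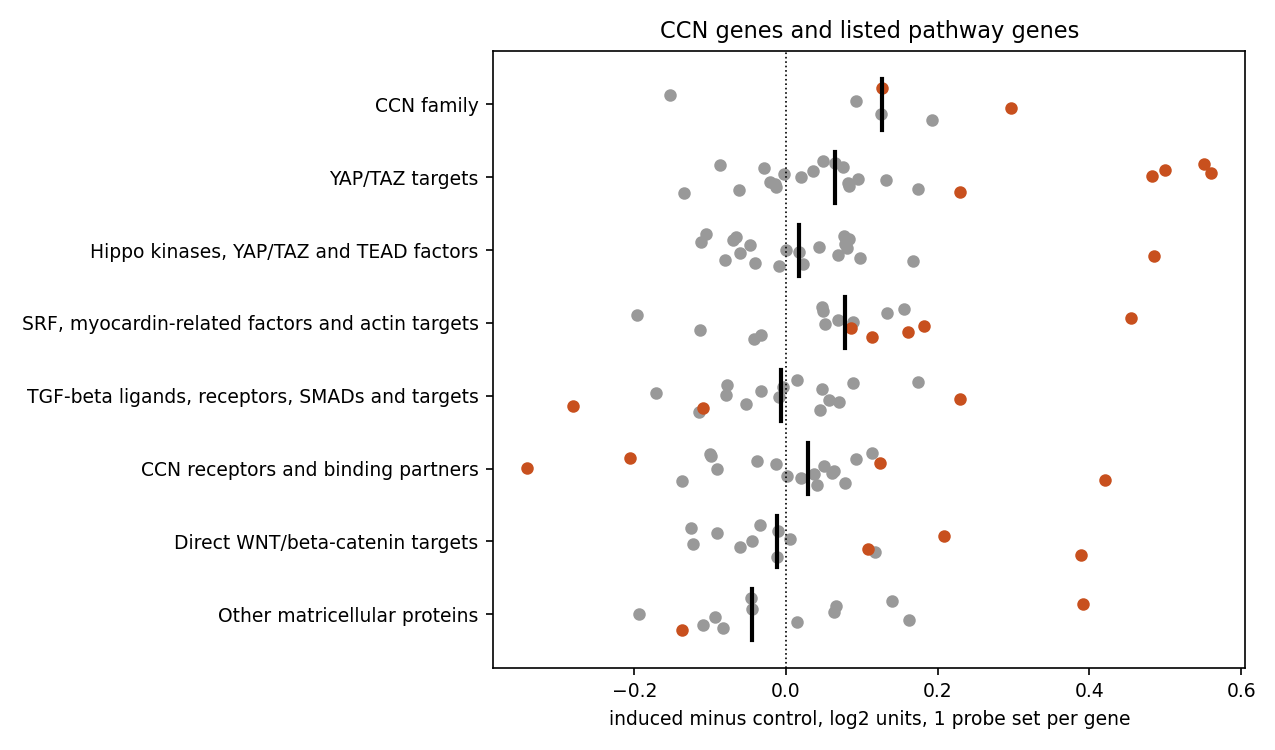
Induced minus control difference in log2 units of the 6 CCN genes and of the listed pathway genes, with 1 point per gene (its brightest probe set), orange where the unadjusted p was under 0.05, and a black bar at the median of each list. The CCN family median lies at 0.13, and ITGB3 is the point farthest to the left. The YAP/TAZ targets GADD45B, F3, AJUBA and GADD45A lie to the right of every CCN gene. So do VGLL3, ACTG2, VEGFA, THBS1 and LGR5 from other lists.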

How the data were processed

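The deposited values are log2 intensities per probe set. The authors made them by RMA, and the submitters' processing notes name the affy package. Versions are not given in the sources used here. RMA corrects background, equalises probe distributions between arrays and summarises probe sets, so a shift shared by most genes is not seen and dim differences are compressed. Of the 54675 rows, the tests left out 62 controls. The platform annotation gave 41091 probe sets 1 symbol, 1801 several and 11721 none. By gene identifier 41037 matched RefSeq (GRCh38.p14), where 0 symbols changed.

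Groups came from the sample titles. Limma 3.58.1 in R 4.3.3 was fitted to all 54613 probe sets (eBayes with intensity trend, 2-sided, Benjamini-Hochberg, threshold 0.05, 6.27 degrees of freedom), with no replicate block. Replicate numbers did not clearly pair the arrays. The brightest probe set represented a gene. The test was checked on simulated data with 200 changed probe sets. At the adjusted threshold it recovered 11.2% of changes of 0.5 log2 units and 69.6% of changes of 1 log2 unit. Of its calls 6.35% were false. With 2 arrays per group, array number limits precision.

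CCN members, 12 gene lists (152 of 161 genes measured) and named genes were chosen with earlier results of these data known. Named from each list were up to 4 genes of smallest p at or above the median level of 6.16, plus set regulators and the nearest patterns. ACTG2, LGR5, TEK, COL3A1, PDGFRA, NES, GFAP, AQP4, PTPRC, CDH5 and EPCAM were added after their values were seen. TGFB2, LATS2, COL1A1, DCN and ITGAM stand in 2 lists. Alternatives were a replicate block, other moderation, scaling, a filter, averaged probe sets and leaving out arrays.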

Additional observations from a re-analysis of the deposited data

Results flagged for a closer look

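Outside the comparison of genes, 3′ minus 5′ differences of control transcripts separated the induced arrays, which lay above, from the control arrays, which is why they are listed here. The mean difference between groups was 0.077 log2 units for ACTB and 0.023 for GAPDH. For the spiked-in dap transcript the groups overlapped, at 2.31 and 2.40 in control cultures against 2.30 and 2.81 in induced ones. Their part in the CCN values was not tested. No group had the 4 arrays that a check for single deviating samples needs.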

How the results depend on the processing

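With 2 arrays per group the results have few degrees of freedom, and a p that misses the threshold does not show equal levels. No CCN gene passed the adjusted threshold in any setting run. The count of called probe sets over the whole array was 5 after centring arrays on their medians, 11 after cyclic loess and 2 with robust eBayes, and 0 in the other settings. The count at an unadjusted p under 0.05 was 3468 among probe sets at or above the median, fewer being tested, and 2138 to 6208 with 1 array left out, where a lone array is taken to vary like the other group. The filter on signal gives no value for CCN4, CCN5 and the dimmer CCN6 probe set. The CCN count at that p was 3 to 4, but not of the same probe sets: CCN2 was not called without the trend, where CCN6 226182_s_at was. That CCN6 probe set was also called after centring and after cyclic loess. CCN3 214321_at was called lower without induced replicate 2, with the filter on signal and with robust eBayes, and CCN4 206796_at lower without induced replicate 1. CCN4 turned to -0.061 with the mean of its probe sets, since its probe sets disagree, and CCN5 ran from -0.19 to 0.37 with 1 array left out. Among dimmer probe sets, CCN3 204501_at ran from -0.079 to 0.13 with 1 array left out, CCN4 235821_at from -0.15 to 0.040, CCN4 229802_at from -0.085 to 0.029 and CCN6 210861_s_at from -0.15 to 0.091. After cyclic loess the latter pair stood at 0.00033 and 0.0015. With the replicate number as a block (replicate block), CCN1 kept 0.30 (adjusted p = 0.587) and CCN2 0.13 (adjusted p = 0.587), and no call changed. Deviations of same-numbered arrays correlated at 0.056, so the numbers are not shown to pair the cultures. Where no cause is named, the cause was not tested.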
